A study of Homo sapiens with 3 samples.

Results

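The epidermal growth factor (EGF) family was described here by 10 genes, the ligands AREG, EREG, EPGN, TGFA, HBEGF, NRG1 and BTC and the receptors EGFR, ERBB2 and ERBB3. They were taken by name, by a rule that sets no threshold on their values, as the rows of the count table whose Ensembl identifier maps to these symbols, and all 10 were found among the 58037 genes listed. The cells were RWPE1, an immortalized epithelial line from normal adult human prostate, grown in serum-free prostate epithelial medium with a growth supplement. Bulk RNA was sequenced from 3 libraries, 1 of the genotype OLFM4-wild type, 1 OLFM4-knockout and 1 labelled OLFM4-active. OLFM4 encodes olfactomedin 4, a secreted glycoprotein, and the series sets the knockout cells and the cells labelled active each against the wild-type cells. Per the study's methods, RNA came from bulk cells sorted for a GFP reporter, and reporter lines were made by transfecting OLFM4-wild cells with CRISPR/Cas9 plasmids and selecting with puromycin. Knockout reporter cells received double-nickase knockout plasmids. The methods name the activation plasmids as the source of the OLFM4-wild reporter cells, and they do not say which plasmids, if any, the cells of the OLFM4-wild library or of the library labelled OLFM4-active carried. Neither the labels nor the methods say how many clones or cultures stand behind a library, and treatment times are not given.

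EGF family ligands are made as membrane-anchored precursors, and metalloproteases, above all ADAM17, cut them free. The released ligand binds a receptor tyrosine kinase of the ERBB family, which then pairs with another receptor and signals through the RAS-ERK and PI3K-AKT cascades. EGFR is the receptor of AREG, EREG, EPGN, TGFA, HBEGF and BTC, whereas NRG1 binds ERBB3 and ERBB4. ERBB2 has no known ligand and acts as a partner of the others, and ERBB3 has little kinase activity of its own. In the prostate the pathway is known for driving growth of basal epithelial cells, and cultured prostate epithelium depends on EGF in its medium.

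The 3 libraries held 16309906 (OLFM4-wild), 58837147 (OLFM4-knockout) and 23224216 (labelled OLFM4-active) counts. OLFM4 itself had 214, 131 and 16 counts in that order, or 11.8, 2.55 and 0.670 CPM, the count brought to a common library size with edgeR's TMM factors. The gene was thus lowest in the library whose label names its activation, so that library is called by its label throughout. Basal epithelial markers such as KRT5 and TP63 were present in every library, with none of the 6 at 0 and a summed level of 18139 to 40149 CPM, highest in the knockout. The luminal sum was 310.1 to 470.2 CPM, mostly from KRT8 (282, 231 and 146 CPM) and KRT18 (177, 191 and 157 CPM). The luminal gene KLK3 had at most 2 counts in any library. Of the other cell types checked, COL3A1 of stroma and CD3E and LYZ of leukocytes were at 0 in all 3 libraries. The leukocyte sum of 19.8 to 31.4 CPM was nearly all CD68. The stromal sum of 23.9 to 36.7 CPM was mostly COL1A1, and the endothelial sum was at most 0.605 CPM. The neuroendocrine sum was 3.58 to 13.3 CPM, highest in OLFM4-wild, and was mostly ENO2. CHGA, of the same list, went the other way, with 0, 14 and 14 counts, and SYP had 8, 15 and 8. With 1 library per group there is no replicate spread and no test of the conditions. All intervals are exact 95% Clopper-Pearson intervals that cover counting error only, and each difference is between libraries.

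Of the ligands, 4 lie in 1 cluster on chromosome 4 in the order EPGN, EREG, AREG and BTC, and the promoters of these 4 are shown because the first 3 had higher levels, and BTC a lower one, in the knockout library than in OLFM4-wild. The 250 bases before each gene's start are given 5′ to 3′ on the gene's strand, from RefSeq on GRCh38.p14 (EPGN, chr4:74308220-74308469, plus strand; EREG, chr4:74364895-74365144, plus strand; AREG, chr4:74444886-74445135, plus strand; BTC, chr4:74794524-74794773, minus strand). Capitals mark 5 motifs, searched on both strands. These are the box TATAAA, the cyclic AMP response element TGACGTCA, the AP-1 site TGACTCA, the E-box CACGTG and the box CCAAT, which reads ATTGG on the other strand.
EPGN: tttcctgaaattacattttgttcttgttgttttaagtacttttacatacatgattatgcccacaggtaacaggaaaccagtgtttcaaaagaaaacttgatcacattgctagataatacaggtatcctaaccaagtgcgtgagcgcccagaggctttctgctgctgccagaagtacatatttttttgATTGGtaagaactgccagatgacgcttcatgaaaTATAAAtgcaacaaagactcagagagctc
EREG: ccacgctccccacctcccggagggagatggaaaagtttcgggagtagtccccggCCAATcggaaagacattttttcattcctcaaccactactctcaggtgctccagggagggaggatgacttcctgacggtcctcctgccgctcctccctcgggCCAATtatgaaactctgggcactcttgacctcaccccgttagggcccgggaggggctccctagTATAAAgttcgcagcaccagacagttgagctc
AREG: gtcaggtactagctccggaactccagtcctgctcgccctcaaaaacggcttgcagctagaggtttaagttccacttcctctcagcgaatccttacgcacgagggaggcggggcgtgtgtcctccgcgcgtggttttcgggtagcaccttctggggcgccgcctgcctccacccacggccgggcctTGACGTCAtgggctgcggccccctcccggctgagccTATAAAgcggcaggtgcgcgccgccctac
BTC: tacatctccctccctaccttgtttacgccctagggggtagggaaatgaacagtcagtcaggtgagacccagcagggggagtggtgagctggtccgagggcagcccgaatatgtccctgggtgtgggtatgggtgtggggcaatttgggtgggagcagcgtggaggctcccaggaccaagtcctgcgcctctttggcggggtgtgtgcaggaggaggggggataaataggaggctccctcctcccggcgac
EPGN, EREG and AREG each hold TATAAA, starting 29, 32 and 29 bases before the gene's start. Of 34788 promoter windows of the same length in the table, 10.8% hold TATAAA on either strand. AREG also holds TGACGTCA from 65 to 58 bases before its start, which 1.64% of all windows hold. EREG holds CCAAT at 2 places and EPGN holds it once, on the other strand, and 32.0% of all windows hold it. No match of the 5 motifs was found in the BTC window. TGACTCA (in 4.21% of all windows) and CACGTG (in 6.31%) were in none of these 4 windows. The table has promoters of 8 of the 10 genes, ERBB3 and NRG1 not being among them. The TGFA and HBEGF windows held no match, the ERBB2 window held ATTGG once, and of the EGFR windows only the second, at an internal start, held TATAAA and TGACTCA. A match is a run of letters, and binding was not measured.

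EREG differed most from OLFM4-wild among the 9 of these genes that averaged 1 CPM or more. It encodes epiregulin, a ligand of EGFR and ERBB4 (ENSG00000124882.3, chr4:74365145-74388749, plus strand, GRCh38). It had 403 counts in OLFM4-wild, 5547 in the knockout and 3565 in the library labelled OLFM4-active, which are 22.2 CPM (20.1 to 24.5), 108 CPM (105 to 111) and 149 CPM (144 to 154). OLFM4-wild was lowest and the intervals of the 3 libraries did not overlap. A log2 fold change of 2.28 (interval 2.14 to 2.43), or 4.87-fold, was found in the knockout against OLFM4-wild. In the library labelled OLFM4-active relative to OLFM4-wild it was 2.75 (2.60 to 2.90), or 6.72-fold. Of the 16600 genes that averaged 1 CPM or more, 0.398% had a log2 fold change at or above that of EREG in the first comparison and 0.187% in the second. Both comparisons use the same OLFM4-wild library and are not independent.

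AREG encodes amphiregulin, an EGFR ligand that binds heparin (ENSG00000109321.10, chr4:74445136-74455005, plus strand). Its counts were 1704, 7924 and 5728 in OLFM4-wild, the knockout and the library labelled OLFM4-active, or 93.8 CPM (89.4 to 98.3), 154 CPM (151 to 158) and 240 CPM (234 to 246). The library labelled OLFM4-active was thus highest and OLFM4-wild lowest, with no overlap of the intervals. The log2 fold change was 0.72 (0.64 to 0.80) in the knockout against OLFM4-wild and 1.35 (1.28 to 1.43) in the library labelled OLFM4-active relative to OLFM4-wild. Between the modified libraries AREG was lower in the knockout, with a log2 fold change of -0.64 (-0.68 to -0.59), and EREG was lower too, at -0.47 (-0.53 to -0.40).

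EPGN encodes epigen, a low-affinity ligand of EGFR (ENSG00000182585.9, chr4:74308470-74316789, plus strand). It had 728, 4190 and 1144 counts in the same order, or 40.1 CPM (37.2 to 43.1), 81.6 CPM (79.2 to 84.1) and 47.9 CPM (45.1 to 50.7). Here the knockout stood above both other libraries. The log2 fold change was 1.03 (0.91 to 1.14) in the knockout and 0.26 (0.12 to 0.39) in the library labelled OLFM4-active, each against OLFM4-wild, and 0.77 (0.67 to 0.87) between the knockout and the library labelled OLFM4-active. EREG and AREG were thus higher in the library labelled OLFM4-active than in the knockout, and EPGN, their neighbour on the chromosome, was lower.

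BTC encodes betacellulin, a ligand of EGFR and ERBB4 (ENSG00000174808.11, chr4:74744759-74794523, minus strand). It had 8 counts in OLFM4-wild and 1 in each of the others, or 0.440 CPM (0.190 to 0.868), 0.0195 CPM (0.000493 to 0.109) and 0.0419 CPM (0.00106 to 0.233). With so few counts the ratio of the knockout to OLFM4-wild was 0.0442 with an interval of 0.000997 to 0.330, and that of the library labelled OLFM4-active to OLFM4-wild was 0.0951 with an interval of 0.00214 to 0.709. BTC did not reach a mean of 1 CPM and is left out of the counts and medians given for the genes below.

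TGFA encodes transforming growth factor alpha, an EGFR ligand of many epithelia (ENSG00000163235.15, chr2:70447284-70554193, minus strand). Its counts were 793, 4507 and 1951, or 43.6 CPM (40.7 to 46.8), 87.8 CPM (85.3 to 90.4) and 81.7 CPM (78.1 to 85.4) in OLFM4-wild, the knockout and the library labelled OLFM4-active. OLFM4-wild was lowest, and the intervals of the other libraries overlapped narrowly. Against OLFM4-wild its log2 fold changes were 1.01 (0.90 to 1.12) in the knockout and 0.90 (0.78 to 1.02) in the library labelled OLFM4-active.

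HBEGF encodes heparin-binding EGF-like growth factor, whose membrane form is also the receptor of diphtheria toxin (ENSG00000113070.7, chr5:140332843-140346603, minus strand). It had 190, 797 and 338 counts, or 10.5 CPM (9.02 to 12.1), 15.5 CPM (14.5 to 16.6) and 14.1 CPM (12.7 to 15.7). OLFM4-wild was lowest, and the other libraries could not be told apart by counting error. Its log2 fold change against OLFM4-wild was 0.57 (0.34 to 0.81) in the knockout and 0.43 (0.18 to 0.70) in the library labelled OLFM4-active.

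NRG1 encodes neuregulin 1, the ligand of ERBB3 and ERBB4 (ENSG00000157168.18, chr8:31639222-32855666, plus strand). It had 265, 933 and 550 counts, or 14.6 CPM (12.9 to 16.4), 18.2 CPM (17.0 to 19.4) and 23.0 CPM (21.1 to 25.0). The library labelled OLFM4-active was highest. The log2 fold change against OLFM4-wild was 0.32 (0.12 to 0.52) in the knockout, which turned to -0.04 when library totals were used in place of TMM, and 0.66 (0.44 to 0.88) in the library labelled OLFM4-active.

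**Figure D1:**
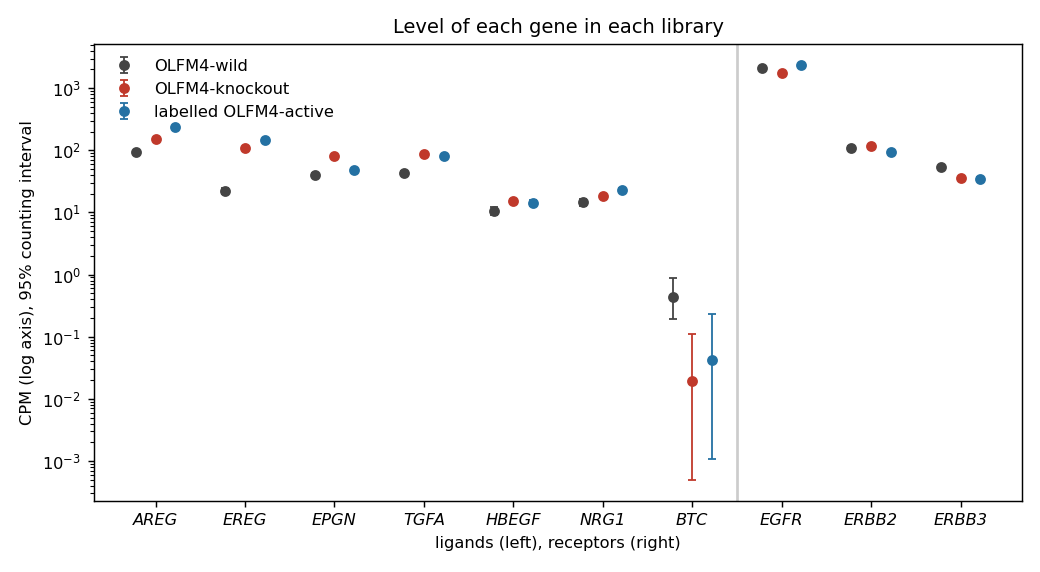
Level of each of the 10 genes in CPM on a log axis, ligands to the left of the grey line and receptors to the right, with 1 point per library and bars for the 95% counting interval. EREG lies at 22.2 CPM in OLFM4-wild and at 108 and 149 CPM in the other libraries, EGFR lies between 1744 and 2365 CPM, and BTC rests on 8, 1 and 1 counts.

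EGFR, the receptor of most of these ligands, was the most abundant of the 10 genes (ENSG00000146648.16, chr7:55019017-55211628, plus strand). It had 37898 counts in OLFM4-wild, 89525 in the knockout and 56513 in the library labelled OLFM4-active, or 2086 CPM (2065 to 2107), 1744 CPM (1733 to 1755) and 2365 CPM (2346 to 2385). The knockout was lowest and the library labelled OLFM4-active highest. The log2 fold change was -0.26 (-0.28 to -0.24) in the knockout against OLFM4-wild, 0.18 (0.16 to 0.20) in the library labelled OLFM4-active relative to OLFM4-wild and -0.44 (-0.45 to -0.42) between the knockout and the library labelled OLFM4-active. EGFR-AS1, a long non-coding RNA on the opposite strand, shares 186 bases of exon with EGFR and had 1361, 3628 and 2101 counts. Counting was by strand, and EGFR-AS1 stood at 3.59, 4.05 and 3.72 counts per 100 EGFR counts.

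ERBB2, the ligandless partner receptor (ENSG00000141736.13, chr17:39687914-39730426, plus strand), had 2009, 5994 and 2216 counts, or 111 CPM (106 to 116), 117 CPM (114 to 120) and 92.7 CPM (88.9 to 96.7). OLFM4-wild and the knockout had overlapping intervals, and the library labelled OLFM4-active was lower than both. In the knockout against OLFM4-wild the log2 fold change was 0.08 (0.01 to 0.15), which turned to -0.27 with library totals, and -0.25 (-0.34 to -0.17) in the library labelled OLFM4-active relative to OLFM4-wild. The opposite strand carries MIEN1 and PGAP3, which share exon bases with ERBB2.

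ERBB3, the receptor that binds NRG1 and relays to PI3K (ENSG00000065361.14, chr12:56076799-56103505, plus strand), had 970, 1836 and 823 counts. These are 53.4 CPM (50.1 to 56.9), 35.8 CPM (34.1 to 37.4) and 34.4 CPM (32.1 to 36.9), with OLFM4-wild highest and the other libraries within counting error of each other. Its log2 fold change against OLFM4-wild was -0.58 (-0.69 to -0.46) in the knockout and -0.63 (-0.77 to -0.50) in the library labelled OLFM4-active. A same-strand gene model, ENSG00000257411, shares 31 bases of exon with ERBB3.

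Of the 9 genes averaging 1 CPM or more, each of which had at least 10.5 CPM in every library, 3 lay above a log2 fold change of 1 (EREG, EPGN and TGFA) and 0 below -1 in the knockout against OLFM4-wild. Over all 16600 genes compared, 5.77% lay above 1 and 7.56% below -1. EPGN and TGFA were close to the line, at 1.03 and 1.01. With library totals they stood at 0.67 and 0.66, leaving 1 gene, EREG, above 1, and over all genes the number above 1 went from 957 to 368 and the number below -1 from 1255 to 2308. TMM placed the knockout higher against OLFM4-wild by 0.35 on the log2 scale than totals did. In the library labelled OLFM4-active relative to OLFM4-wild, 2 of the 9 lay above 1 (EREG and AREG) and 0 below -1, beside 3.78% and 6.73% of all genes. Library totals left the same counts of the 9 there, and turned the 627 above and 1117 below of all genes to 480 and 1387. Between the knockout and the library labelled OLFM4-active, 0 lay above 1 and 0 below -1, beside 2.95% and 3.39% of all genes, and totals turned those 490 and 563 genes to 212 and 1135.

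The median log2 fold change of the 6 ligands compared was 0.86 in the knockout and 0.78 in the library labelled OLFM4-active, each against OLFM4-wild, where the medians of all genes were 0.10 and 0.05. Each of the 6 lay above 0 in both comparisons, except NRG1 in the knockout under library totals. With TMM, 56.7% of all genes lay above 0 in the knockout and 53.9% in the library labelled OLFM4-active. The medians of the 3 receptors were -0.26 and -0.25. Between the knockout and the library labelled OLFM4-active the ligand median was -0.12 and the receptor median 0.05. With TMM, TGFA was higher in the knockout there by 0.10 (0.03 to 0.18) and HBEGF by 0.13 (-0.05 to 0.32) on the log2 scale, and ERBB3 by 0.05 (-0.07 to 0.17), and with library totals all of these turned, to -0.13, -0.10 and -0.18. NRG1 was at -0.34 (-0.49 to -0.19) and ERBB2 at 0.33 (0.26 to 0.40) in the same comparison, with no change of sign under totals.

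**Figure D2:**
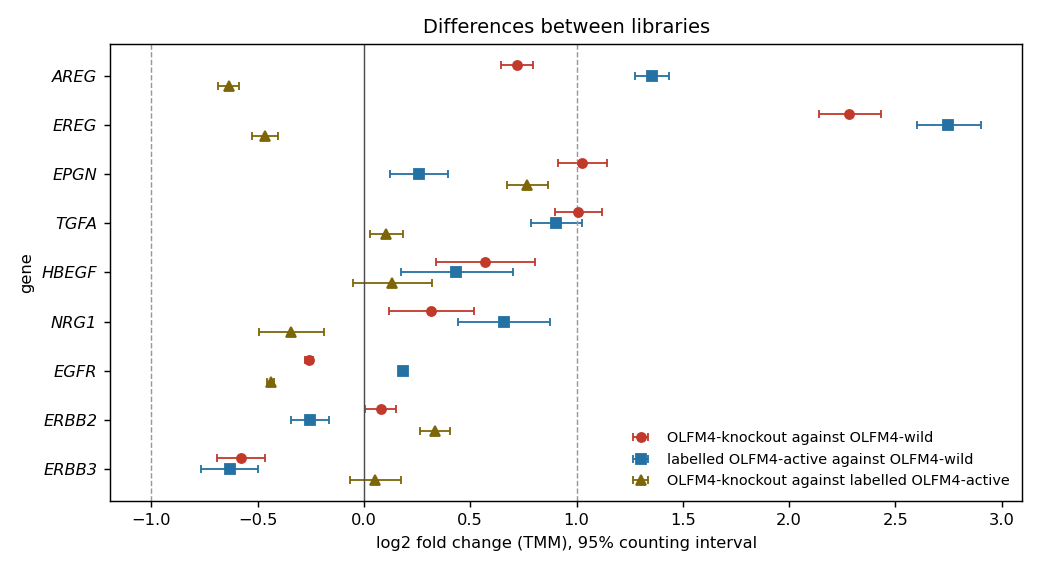
Log2 fold change of each gene averaging 1 CPM or more in the 3 comparisons of libraries, with the 95% counting interval as a bar and dashed lines at -1 and 1. EREG lies at 2.28 and 2.75 against OLFM4-wild, and ERBB3 at -0.58 and -0.63.

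Summed over the 7 ligands, the level was 225 CPM in OLFM4-wild, 466 CPM in the knockout and 556 CPM in the library labelled OLFM4-active, while the 3 receptors summed to 2250, 1897 and 2492 CPM. The log2 fold change of the ligand sum was 1.05 (1.0 to 1.1) in the knockout against OLFM4-wild (0.70 with library totals) and 1.30 (1.25 to 1.35) in the library labelled OLFM4-active relative to OLFM4-wild. That of the receptor sum was -0.25 (-0.26 to -0.23) and 0.15 (0.13 to 0.17). The ligand sum and the receptor sum thus differed from OLFM4-wild in opposite directions in the knockout. EGFR made up 92.0% of the receptor counts there, and ERBB2 was at 0.08 (0.01 to 0.15), or -0.27 with library totals.

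Ratios within a library need no scaling between libraries. There were 10.8 ligand counts per 100 EGFR counts in OLFM4-wild (10.4 to 11.1), 26.7 in the knockout (26.3 to 27.1) and 23.5 in the library labelled OLFM4-active (23.1 to 23.9). EREG accounted for 1.06 per 100 EGFR counts in OLFM4-wild (0.962 to 1.17), 6.20 in the knockout (6.03 to 6.37) and 6.31 in the library labelled OLFM4-active (6.10 to 6.53). The last of these intervals overlap, so the modified libraries could not be told apart in this ratio, and both stood above OLFM4-wild. AREG stood at 4.50 (4.28 to 4.72), 8.85 (8.65 to 9.06) and 10.1 (9.86 to 10.4) per 100 EGFR counts. ERBB3 stood at 2.56 (2.40 to 2.73), 2.05 (1.96 to 2.15) and 1.46 (1.36 to 1.56), lowest in the library labelled OLFM4-active. Per 100 ERBB2 counts, its partner, ERBB3 had 48.3 (44.7 to 52.2), 30.6 (29.1 to 32.3) and 37.1 (34.2 to 40.3).

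**Figure D3:**
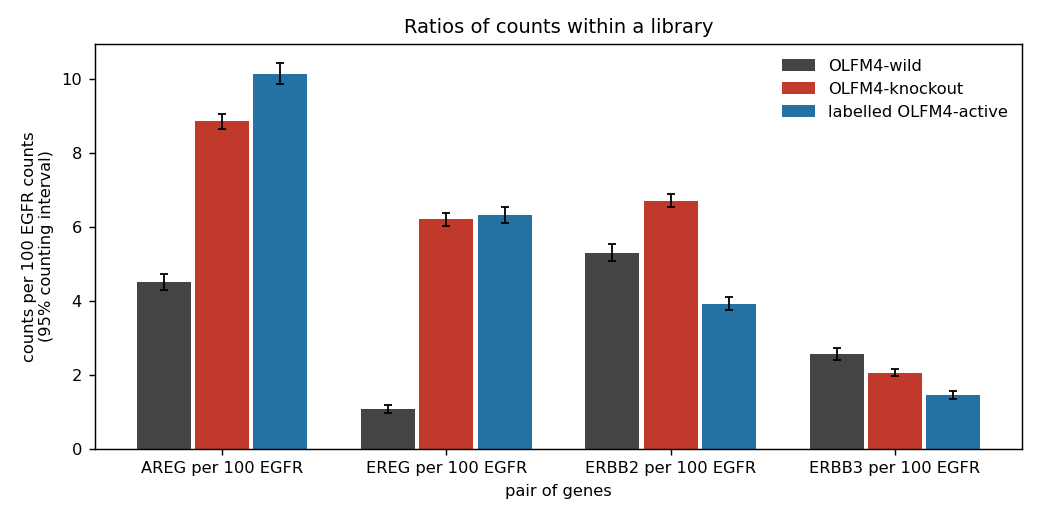
Counts of AREG, EREG, ERBB2 and ERBB3 per 100 counts of EGFR in each library, as bars from 0 with the 95% counting interval. EREG goes from 1.06 in OLFM4-wild to 6.20 and 6.31 in the other libraries.

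The make-up of the ligand mRNA differed between libraries. EREG made up 9.85% of the ligand counts in OLFM4-wild (8.95 to 10.8), 23.2% in the knockout (22.7 to 23.8) and 26.9% in the library labelled OLFM4-active (26.1 to 27.6). EPGN made up 17.8% (16.6 to 19.0) and 17.5% (17.1 to 18.0) in OLFM4-wild and the knockout and 8.62% (8.14 to 9.11) in the library labelled OLFM4-active. AREG held the largest share in each, 41.7%, 33.2% and 43.1%, and TGFA held 19.4%, 18.9% and 14.7%. HBEGF and NRG1 together stayed minor, with HBEGF at 4.64%, 3.33% and 2.55% and NRG1 at 6.48%, 3.90% and 4.14%. Divided by gene length, the share of AREG was 66.1%, 58.2% and 69.8% and that of EREG 4.50%, 11.7% and 12.5%. Of the receptor counts EGFR made up 92.7%, 92.0% and 94.9%.

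**Figure D4:**
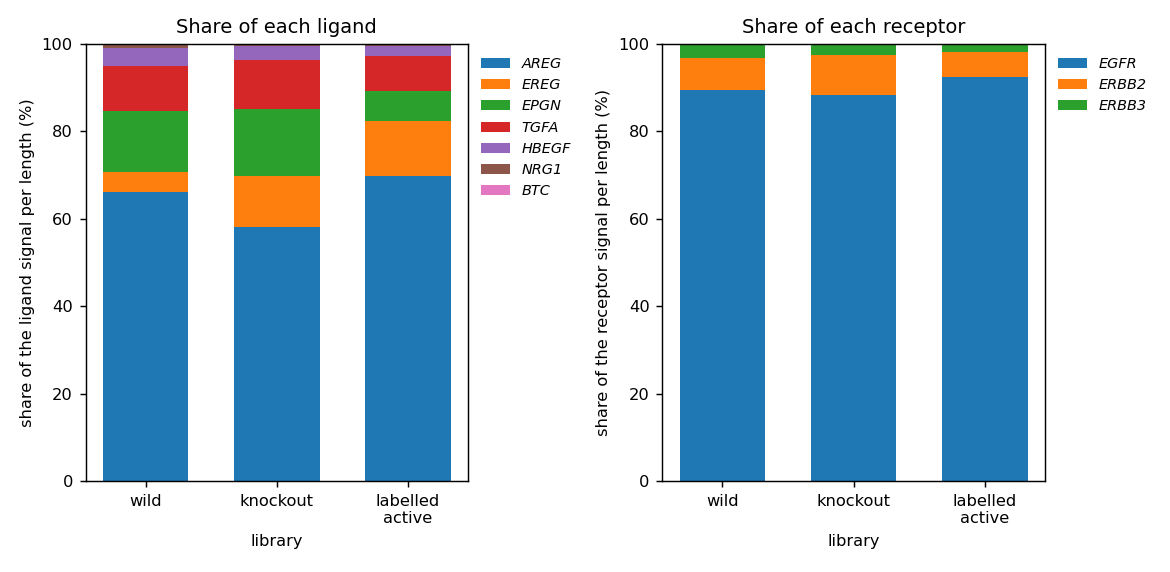
Share of each ligand (left) and each receptor (right) in the summed signal per gene length of its class, in percent, 1 stacked bar per library. The EREG segment is 4.50% in OLFM4-wild and 11.7% and 12.5% in the other libraries, and EGFR makes up most of each receptor bar.

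Compared per length, as CPM divided by the gene's length in kilobases (RPKM), EGFR and AREG took places 1 and 2 of the 10 genes in every library. EGFR stood at 131, 109 and 148 RPKM and AREG at 57.1, 94.0 and 146 RPKM, and in the library labelled OLFM4-active their ratio of 1.02 (0.989 to 1.04) did not differ from 1 beyond counting error. All other neighbours in the order, in each library, differed beyond counting error, apart from EREG and HBEGF in OLFM4-wild. EREG took place 7 in OLFM4-wild with 3.88 RPKM, place 4 in the knockout with 18.9 RPKM and place 3 in the library labelled OLFM4-active with 26.1 RPKM. In OLFM4-wild its neighbours in the order were ERBB3 at 4.56 RPKM, with an RPKM 1.17 times that of EREG (1.04 to 1.32), and HBEGF at 3.50 RPKM, over which EREG had a ratio of 1.11 (0.932 to 1.33) that did not differ beyond counting error. EPGN took place 3 in OLFM4-wild at 12.1 RPKM, place 3 in the knockout at 24.7 RPKM and place 5 in the library labelled OLFM4-active at 14.5 RPKM. ERBB2 went from place 4 in OLFM4-wild (10.7 RPKM) to place 6 in the others (11.3 and 8.99 RPKM), TGFA stood at 8.88, 17.9 and 16.6 RPKM, and NRG1 and BTC closed the order in each library. Lengths were the union of all annotated exons, which lowers the RPKM of genes with many rarely used exons, such as NRG1 at 0.682 to 1.08 RPKM.

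Of the rest of the family, NRG4, a ligand of ERBB4, was the only gene that averaged 1 CPM or more, with 34, 121 and 60 counts. EGF itself had 8, 36 and 4 counts, NRG2 had 2, 10 and 2, and ERBB4 had 1, 0 and 0. NRG3 had 0 counts in all 3 libraries, which by the limit of 3 counts used for a 0 allows up to 0.165 CPM in OLFM4-wild, 0.0584 CPM in the knockout and 0.126 CPM in the library labelled OLFM4-active.

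The pathway around the receptors was followed with lists of its parts. Of 10 genes compared for ligand shedding and trafficking, 1 lay above 1 and 1 below -1 on the log2 scale in the knockout against OLFM4-wild, beside 5.77% and 7.56% of all genes, with a median of -0.06. FRMD8, which steadies the iRhom proteins that carry ADAM17 to the cell surface, had 809, 4775 and 1245 counts and a log2 fold change of 1.06 (0.96 to 1.17), or 0.71 with library totals. RHBDF2, which encodes such an iRhom, had 149, 197 and 168 counts and a log2 fold change of -1.10 (-1.41 to -0.78). ADAM17 and RHBDF1, of the same list, had more counts and were named after their values were seen. ADAM17 had 897, 2349 and 1514 counts and was at -0.11 (-0.22 to 0.003) in the knockout. RHBDF1 had 501, 1454 and 505 counts and was at 0.04 (-0.11 to 0.19). In the library labelled OLFM4-active 0 of the 10 lay past 1 either way, beside 3.78% of all genes above 1 and 6.73% below -1, and the median was 0.14.

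Of the 23 genes that relay the signal below the receptors, 0 lay above 1 and 2 below -1 in the knockout against OLFM4-wild, with a median of 0.01, where 7.56% of all genes lay below -1. SOS1, the exchange factor that activates RAS, was at -1.04 (-1.17 to -0.90), with 816, 1125 and 759 counts. GAB1, a docking protein that recruits PI3K, was at -1.01 (-1.15 to -0.86) with 673, 945 and 431 counts. In the library labelled OLFM4-active relative to OLFM4-wild GAB1 was at -1.04, the only one of the 23 past 1, and the median was 0.10. Over all genes 3.78% lay above 1 and 6.73% below -1 in that comparison. The 2 of 23 in the knockout are close to the 7.56% of all genes, as is the 1 below -1 there of the 14 genes that restrain or remove the receptors. That gene was CBLB, a ubiquitin ligase of activated EGFR, at -1.12 (-1.36 to -0.88). Its counts were 259, 336 and 236. The medians of these 14 were -0.07 in the knockout and 0.03 in the library labelled OLFM4-active. With library totals 5 of the 23 relay genes and 2 of the 14 lay below -1 in the knockout, beside 2308 of all 16600 genes. In the library labelled OLFM4-active 1 of the 14 lay below -1 with totals, beside 1387 of all genes.

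Genes that respond to ERK had medians above those of all genes, which were 0.10 in the knockout and 0.05 in the library labelled OLFM4-active, each against OLFM4-wild. Of 16 compared, 2 lay above 1 and 0 below -1 in the knockout against OLFM4-wild, with a median of 0.50, beside 5.77% and 7.56% of all genes. There were 6 above and 0 below in the library labelled OLFM4-active relative to OLFM4-wild, with a median of 0.79, beside 3.78% and 6.73% of all genes. FOSL1, an AP-1 subunit, had 212, 2336 and 2022 counts, or 11.7, 45.5 and 84.6 CPM, with log2 fold changes of 1.96 (1.76 to 2.17) and 2.86 (2.65 to 3.07). CCND1, cyclin D1 of the cell cycle, had 1705, 10100 and 4707 counts, or 93.8, 197 and 197 CPM, with a log2 fold change of 1.07 in both, or 0.72 and 0.95 with library totals. The other 4 past 1 in the library labelled OLFM4-active, named after their values were seen, were SPRED2 (1.34), DUSP5 (1.21), DUSP4 (1.18) and ETV4 (1.16), all encoding feedback inhibitors of the cascade except the transcription factor ETV4. Under library totals the list had 1 gene above 1 and 1 below -1 in the knockout, with a median of 0.15. It had 5 above and 0 below in the library labelled OLFM4-active, with a median of 0.67. Totals lower every gene by the same amount, 0.35 in the knockout and 0.11 in the library labelled OLFM4-active. The medians of all genes are lowered as much, so the distance of the list from them stays the same. Of all 16600 genes, totals put 368 above and 2308 below in the knockout, and 480 and 1387 in the library labelled OLFM4-active. Not all ERK-responsive genes were higher in the knockout, and EGR1, an immediate early gene named after its values were seen, was at -0.63 (-0.68 to -0.58) in the knockout and at 0.34 (0.29 to 0.39) in the library labelled OLFM4-active, with 5517, 10062 and 9191 counts. Of the 16, 12 lay above 0 in the knockout and 15 in the library labelled OLFM4-active, beside 56.7% and 53.9% of all genes. SPRY2 and DUSP6 were also named after their values were seen. SPRY2 was at -0.61 in the knockout and -0.35 in the library labelled OLFM4-active, and DUSP6 at 0.76 and 0.09. MYC, itself on this list, was at 0.90 and 0.83 and has many other inputs. ERK activity was not measured.

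**Figure D5:**
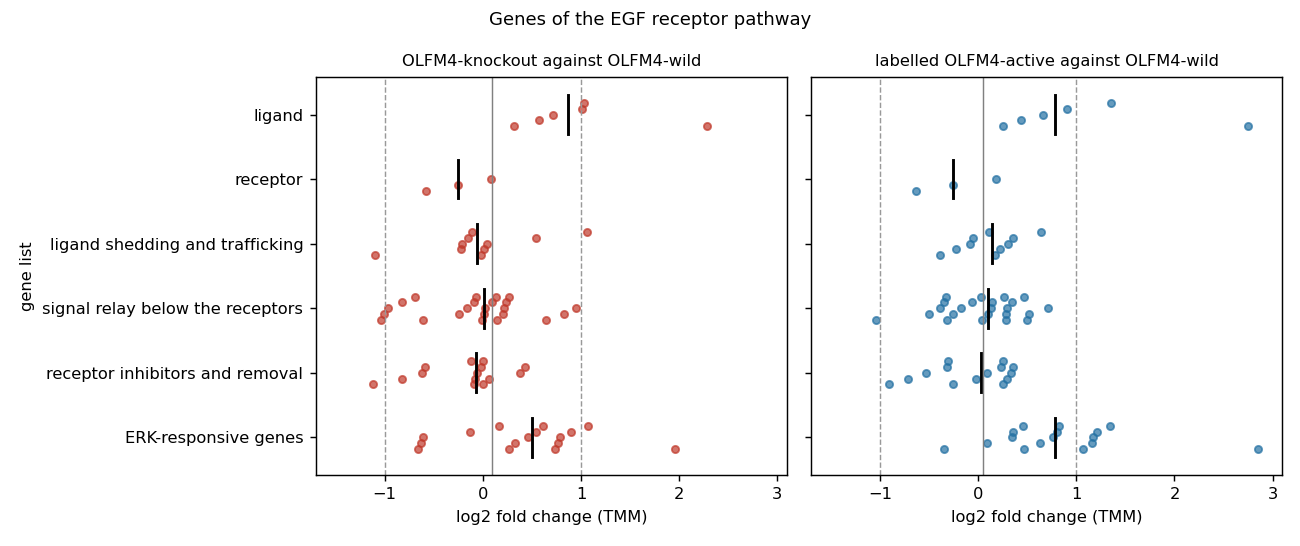
Log2 fold change of each gene averaging 1 CPM or more in 6 groups of the pathway, for the knockout (left) and the library labelled OLFM4-active (right), each against OLFM4-wild. Black bars are the group medians, the grey line is the median of all genes and dashed lines mark -1 and 1. The medians of the ligands and of the ERK-responsive genes lie to the right of the grey line, at 0.86 and 0.50 on the left panel and 0.78 and 0.79 on the right. Some single ERK-responsive genes lie to its left, such as EGR1 at -0.63 and ETV5 at -0.66 on the left panel.

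Over the 3 libraries, the protein-coding genes whose centred log2 CPM lay closest to those of AREG, among 9662 averaging 10 CPM or more, were MAP3K9 (34.1, 54.9 and 87.6 CPM) at a Euclidean distance of 0.0293 and DDX21 (263, 430 and 651 CPM) at 0.0336. Closest to EGFR were NT5C2 (62.4, 52.1 and 71.2 CPM) at 0.00738 and BMPR1B (14.5, 12.0 and 16.5 CPM) at 0.0107. For EREG, added after the values were seen, they were THBS2 (3.52, 16.7 and 23.7 CPM) at 0.0386 and F3 (85.9, 450 and 578 CPM) at 0.0874. With 3 libraries, a close match in so many genes is a description of the values only.

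The summed level of the 6 basal markers was 18139, 40149 and 21630 CPM in OLFM4-wild, the knockout and the library labelled OLFM4-active. The basal sum was thus higher in the knockout than in OLFM4-wild, as was the ligand sum. Most of the basal sum was KRT5 and KRT14, and TP63 had a log2 fold change of 0.19 in the knockout against OLFM4-wild (-0.16 with library totals). In the library labelled OLFM4-active the basal sum was also above that of OLFM4-wild, by less than in the knockout. The median log2 fold change of the 6 markers was 0.24 there, with KRT14 at 0.47 and KRT15 lower than in OLFM4-wild, at -0.38. EREG, AREG and NRG1 were higher in the library labelled OLFM4-active than in the knockout, EPGN was lower, and TGFA and HBEGF were close to their levels in the knockout. The part of cell make-up in the ligand levels was not tested. In bulk RNA, more cells that make a ligand and more of its mRNA per cell cannot be told apart.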

How the data were processed

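RNA of 3 RWPE1 libraries, 1 per genotype label, was analysed. The authors made TruSeq stranded total RNA libraries depleted of ribosomal RNA, aligned read pairs with HISAT2, counted uniquely mapped, reversely stranded pairs per gene with featureCounts and deposited whole-number counts without normalization. Each column was matched to its sample by the name in the labels. Positions and union exon lengths were taken from GENCODE version 44, which holds 98.1% of the identifiers and may differ from the annotation counted.

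Library sizes were scaled with TMM factors of 1.11, 0.872 and 1.03 (edgeR 4.0.16, R 4.3.3). Log2 fold changes used an offset of 0.5 counts as in voom, and intervals were conditional exact ones (scipy 1.17.1, Python 3.11.15) on the counts, which are not independent molecules. Genes averaging 1 CPM or more over the libraries were compared, and a fold was counted past 1 on the log2 scale. A count of 0 was given a limit of 3 counts. Alternatives were library totals, DESeq2 1.42.0 size factors, upper quartile factors, other offsets, thinning, other filters and a threshold of 2. The fold changes and intervals were tested on simulated Poisson counts with known library sizes. That test covers neither the choice of scaling nor spread between replicates. The genes and lists were chosen with earlier results of these data known. Named are all 10 genes, OLFM4, genes of each list past 1 in the knockout against OLFM4-wild (else up to 4 with the most counts), and the 2 nearest patterns to AREG and EGFR. Any gene named otherwise was chosen after its values were seen.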

Additional observations from a re-analysis of the deposited data

How the results depend on the processing

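No paired analysis was possible because each group has 1 library, and for the same reason no replicate could be left out. Of the genes' log2 fold changes, those of NRG1 and ERBB2 (knockout against OLFM4-wild) and of TGFA, HBEGF and ERBB3 (knockout against the library labelled OLFM4-active) changed sign under at least 1 of the 7 alternatives. EREG kept its place above 1 against OLFM4-wild in both comparisons under all 7, from 1.93 to 2.29 and from 2.63 to 2.77. Depth limits BTC, and HBEGF with 190 counts in the smallest library.

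In the knockout against OLFM4-wild, library totals gave medians of 0.21 for all genes described, 0.51 for ligands and -0.61 for receptors. Totals lower every gene by 0.35 on the log2 scale there, the median of all 16600 genes included. Totals left 1 above 1, beside 368 of all genes. Upper quartile factors and a threshold of 2 also left 1. In the library labelled OLFM4-active a threshold of 2 left 1. All genes were not counted under upper quartile factors or at a threshold of 2, so those counts have no share of all genes to be set against. Between the knockout and the library labelled OLFM4-active the medians in the same order were -0.18, -0.36 and -0.18 with totals. Totals lower every gene by 0.24 in that comparison. Upper quartile factors gave -0.051, -0.22 and -0.051, and thinning gave -0.20 for ligands. The number of all genes past 1 rose with looser filters. At 10 counts over both libraries it was 1864 above and 3420 below for the knockout against OLFM4-wild, 1452 and 2679 for the library labelled OLFM4-active relative to OLFM4-wild, and 1586 and 2057 for the knockout against the library labelled OLFM4-active. At 1 count in either library it was 3338 and 7970, 4707 and 7134, and 4017 and 5901 in that order. With library totals it was 368 and 2308 in the first comparison and 212 and 1135 in the last. The threshold and the filters act by their construction, and the cause of the other changes was not tested.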

Other observations

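Genes beside these ligands and receptors on their chromosomes were described as well. Of 17 listed neighbours 15 reached a mean of 1 CPM, with median log2 fold changes of 0.43 in the knockout and 0.32 in the library labelled OLFM4-active, each against OLFM4-wild, where the medians of all genes were 0.10 and 0.05. Of these 15, 0 lay above 1 in either comparison, beside 5.77% (knockout) and 3.78% (library labelled OLFM4-active) of all genes. Under library totals, 2 lay below -1 in the knockout, beside 2308 of all 16600 genes. With TMM, 1 lay below -1 in each comparison, beside 7.56% and 6.73% of all genes. In the knockout it was ADD2, a cytoskeletal adducin beside TGFA, at -1.64 on 31, 28 and 54 counts in OLFM4-wild, the knockout and the library labelled OLFM4-active. In the library labelled OLFM4-active it was GRB7, an adaptor that binds ERBB receptors and lies beside ERBB2, at -1.03 on 245, 370 and 158 counts, which was named after its value was seen. Beside the ligand cluster of chromosome 4, MTHFD2L, a mitochondrial folate enzyme upstream of EPGN, had 160, 721 and 268 counts and log2 fold changes of 0.67 and 0.35. PARM1, on the far side of BTC, had 10, 4 and 3 counts, or 0.550, 0.0779 and 0.126 CPM. Within that stretch EREG at 2.28 and 2.75 differed more from OLFM4-wild than MTHFD2L, EPGN or AREG did. BTC and PARM1, which did not reach a mean of 1 CPM, are left out of that comparison.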
